A study of Mus musculus with 9 samples.

Results

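Acute-phase plasma protein genes were followed in mouse liver, namely the serum amyloid A genes Saa1, Saa2, Saa3 and Saa4, the orosomucoid genes Orm1, Orm2 and Orm3, and their partners Hp, Lcn2 and Apcs. The members were chosen by symbol, and all 10 were found among the 32285 gene identifiers of the table. Bulk RNA sequencing had been done on livers of 3 groups with 3 libraries each. All mice were of the Tet-OFF type, carrying a PB CAG-CreERT2 allele, which drives a tamoxifen-activated Cre from a broadly active promoter, a loxP-stop-loxP tTA allele and a tetO-Venus-ires-mCherry reporter at Rosa26. Mice of every group, controls included, had received tamoxifen. The labels give an age of 4 weeks for the mice, and the study describes the treated mice as male. The Dox group drank doxycycline hyclate and the Tc group tetracycline hydrochloride, both at 2 mg/mL in water with 10 mg/mL sucrose for 7 days. The water of the controls is not described in the sources used here. Either drug turns the tTA-driven reporter off, so an action of a drug and the loss of the reporter cannot be told apart. The study's methods describe chimeric mice made from edited embryonic stem cells and do not say whether the sequenced mice were chimeras.

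Acute-phase proteins are made mainly by hepatocytes and secreted into plasma, and their production rises in infection and injury. Interleukin-6 and related cytokines act through a receptor complex with gp130 and the factor STAT3, interleukin-1 acts through NF-kappaB, and C/EBP factors bind upstream of many of these genes. Saa1 and Saa2 encode the main inducible serum amyloid A proteins, which travel on high-density lipoprotein. Saa4 encodes a constitutive form, and Saa3 an inducible form that is also made outside the liver. Orosomucoids bind basic and neutral drugs, haptoglobin (Hp) captures free haemoglobin, lipocalin 2 (Lcn2) binds bacterial siderophores, and serum amyloid P component (Apcs) is the pentraxin that serves as an acute-phase protein in mice.

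The 4 Saa genes lie together on chromosome 7 in GRCm38 (mm10), with Saa3 at 46711998 to 46715700, Saa4 at 46727998 to 46732603 and Saa1 at 46740497 to 46742980 on the minus strand, and Saa2 at 46751790 to 46754313 on the plus strand. The 3 Orm genes lie side by side on the plus strand of chromosome 4, with Orm1 at 63344560 to 63348163, Orm3 at 63356162 to 63359511 and Orm2 at 63362449 to 63365878. Hp lies on chromosome 8 (109575128 to 109579172), Lcn2 on chromosome 2 (32384633 to 32388252) and Apcs on chromosome 1 (172893961 to 172895041), all on the minus strand. All 10 are protein-coding in GENCODE vM21. Saa1 and Saa2 are close copies, with 87.3% identity between their principal transcripts, and Orm1 and Orm2 share 91.0%. Reads were 86 bases long and only uniquely mapped ones were counted. Of the 86-base windows of the principal transcript of Saa1, 2.67% also occurred in a transcript of Saa2, and 10.9% of those of Orm1 occurred in Orm2 and the reverse. The principal transcripts of Saa2 and Orm3 had 0 windows in common with another gene. Most of each copy could thus be told from the other, and the levels of Orm1 and Orm2 are the least certain.

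Windows of the 250 bases before the RefSeq start were at hand for 8 members on GRCm38.p6. That of Lcn2 lies inside the annotated gene, with 197 bases in its exons, and is not a window upstream of the whole gene. Printed here are those of the inducible Saa genes, all of which fell with Dox, and of Orm2 and Orm3, neighbours whose levels differed in pattern with Dox. Each runs up to the first annotated exon in the direction of the gene, with matches to the C/EBP motif in capitals. The windows are chr7:46742981-46743230 (minus strand) for Saa1, chr7:46751583-46751789 (plus) for Saa2, chr7:46715701-46715926 (minus) for Saa3, chr4:63362199-63362448 (plus) for Orm2 and chr4:63355908-63356157 (plus) for Orm3.
Saa1: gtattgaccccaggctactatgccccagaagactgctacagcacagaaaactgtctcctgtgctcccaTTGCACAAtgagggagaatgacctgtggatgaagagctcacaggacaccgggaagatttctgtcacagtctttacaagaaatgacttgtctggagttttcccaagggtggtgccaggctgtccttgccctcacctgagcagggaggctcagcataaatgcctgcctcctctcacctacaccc
Saa2: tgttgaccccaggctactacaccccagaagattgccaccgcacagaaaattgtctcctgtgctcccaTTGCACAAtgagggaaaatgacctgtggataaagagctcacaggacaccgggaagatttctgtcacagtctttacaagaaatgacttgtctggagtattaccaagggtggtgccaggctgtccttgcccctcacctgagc
Saa3: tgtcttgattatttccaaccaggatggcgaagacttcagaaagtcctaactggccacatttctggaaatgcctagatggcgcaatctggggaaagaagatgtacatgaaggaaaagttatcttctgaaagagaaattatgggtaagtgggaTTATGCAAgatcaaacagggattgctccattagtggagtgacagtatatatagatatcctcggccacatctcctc
Orm2: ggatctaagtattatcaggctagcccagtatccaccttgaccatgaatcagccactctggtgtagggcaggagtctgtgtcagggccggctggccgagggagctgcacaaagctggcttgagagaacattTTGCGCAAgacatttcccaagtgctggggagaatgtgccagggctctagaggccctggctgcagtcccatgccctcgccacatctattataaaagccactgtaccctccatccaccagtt
Orm3: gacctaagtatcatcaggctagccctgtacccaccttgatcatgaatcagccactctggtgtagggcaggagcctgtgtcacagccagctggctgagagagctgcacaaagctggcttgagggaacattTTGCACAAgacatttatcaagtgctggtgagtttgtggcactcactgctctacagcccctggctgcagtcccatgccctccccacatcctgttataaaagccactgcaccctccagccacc
The windows of Saa1 and Saa2 were 94.8% identical over 250 bases and those of Orm2 and Orm3 85.9%. The motif TTGCNNAA, read on both strands, was found in 6 of the 7 other windows (Saa1, Saa2, Saa3, Saa4, Orm2 and Orm3) and in that of Lcn2, against 9.56% of 32851 windows of all genes. The match began 182, 183, 99, 120 and 121 bases before the RefSeq start in Saa1, Saa2, Saa3, Orm2 and Orm3. The STAT motif TTCNNNGAA (both strands) was found in Apcs alone, against 7.02% of all windows, and an NF-kappaB motif (both strands) in 0 of the 8, against 4.65%. The letters TATAAA on the sense strand were present in Orm2 and Orm3, against 7.59% of all windows. The motifs overlapped nowhere in these windows. A match is a run of letters and not a measured binding site.

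Values are normalized counts, that is reads on a gene divided by a size factor of the library. Control libraries held 8250804 to 10912338 reads on genes, Dox libraries 7426136 to 10330238 and Tc libraries 10216627 to 12183041. In the Dox and Tc groups, library 3 could be written nearly as a mix of libraries 1 and 2. Weights fitted on the 12090 other genes tested were 58.0% and 42.4% for controls, 61.3% and 34.6% for Dox, and 62.4% and 36.4% for Tc. The members' own values in library 3 were 0.894 to 1.32 times this sum in controls, 0.978 to 1.16 times with Dox and 0.848 to 1.14 times with Tc. If libraries 3 are not independent mice, p-values from all 9 libraries are too small, so calls are also given without them. The study describes the libraries of a group as biological replicates. Groups were compared with limma on log2(normalized count + 1), a scale that understates the change of genes with few counts, and a gene was called at a change over 2-fold with an adjusted p under 0.05. Bulk RNA cannot tell fewer hepatocytes from less RNA per hepatocyte.

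The acute-phase genes were abundant in the control livers. Together the 10 members took 1.20%, 1.66% and 1.35% of all normalized counts in control libraries 1, 2 and 3. Per kilobase of principal transcript, Hp stood first in each control library (53045 to 64479.9 normalized counts per kb), followed by Saa1 (27527 to 38618), Saa2 (22719 to 28515) and Orm1 (10903 to 13359). Apcs, Lcn2, Saa4 and Orm2 came next in that order, with means of 7317 ± 853, 5918 ± 620, 3684 ± 729 and 1286 ± 215 per kb (SD, n = 3). Saa3 and Orm3 were lowest, at 214 ± 19.0 and 200.3 ± 35.6 per kb, and did not differ beyond their spread. Within the controls the highest library exceeded the lowest by at most 1.49-fold for any member.

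**Figure D1:**
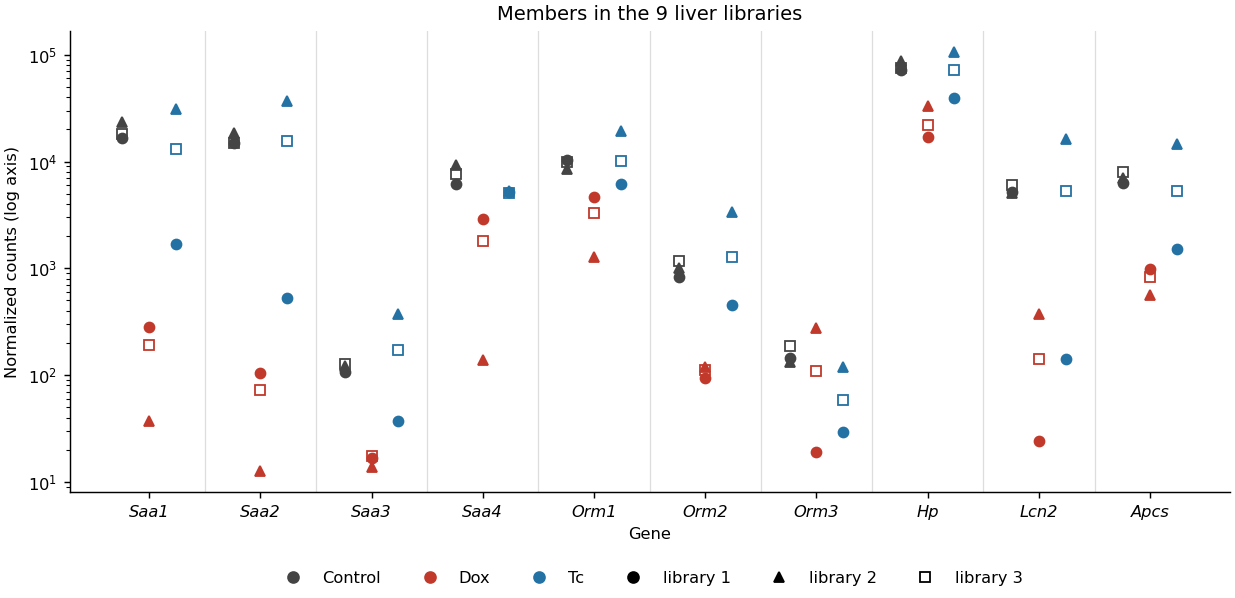
Normalized counts (log axis) of the 10 members in the 9 liver libraries, with colours for the groups and symbols for the library number. Open squares are library 3, nearly a mix of libraries 1 and 2 in the Dox and Tc groups. The control points lie close together, the Dox points lie below them except for Orm3, and the Tc points of most members are spread from below the controls to above them.

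Saa1 and Saa2 had the largest fold changes of the 10 members with Dox. Saa1 had 16764, 23519 and 17981 normalized counts in control libraries 1, 2 and 3 and 281, 36.8 and 190.0 in the Dox libraries. Saa2 had 14964, 18592 and 14813 in controls and 105, 12.7 and 72.1 with Dox, the lowest of these values resting on 11 reads. All Dox libraries lay below all controls for both genes, and Dox library 2 was the lowest in each case. The log2 fold change of Dox against control was -7.24 for Saa1 (standard error 1.05, limma adjusted p = 0.0103) and -8.40 for Saa2 (standard error 1.4, limma adjusted p = 0.0150). Without libraries 3 the adjusted p was 0.559 for both with limma, and 9.39e-06 for Saa1 and 0.00523 for Saa2 with DESeq2.

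Saa3, the form also made by macrophages and adipocytes, fell as well, from a low level. It had 107, 122 and 127 normalized counts in controls and 16.8, 13.8 and 17.6 with Dox, without overlap. Its log2 fold change was -2.81 (standard error 0.68, limma adjusted p = 0.0401). Leaving out libraries 3 gave 0.572 in limma and 0.134 in DESeq2. The constitutive Saa4 had 6205, 9256 and 7683 in controls and 2885, 138 and 1814 with Dox. The Dox livers lay below the controls but differed 20.9-fold from each other, far more than the 1.49-fold of the controls. The log2 fold change of Saa4 was -3.08 (standard error 0.94, limma adjusted p = 0.0743), which missed the threshold. DESeq2 called it with all libraries (adjusted p = 0.0146) and not without libraries 3 (0.376).

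The 3 orosomucoid neighbours differed from each other. Orm2 fell with Dox (log2 fold change -3.18, standard error 0.59, limma adjusted p = 0.0186), from 829, 998 and 1162 normalized counts in controls to 93.7, 118 and 113 with Dox. Its Dox libraries agreed within 1.26-fold, and DESeq2 without libraries 3 gave an adjusted p of 0.0253 (limma 0.559). Orm1, the most abundant of the family, had 10353, 8449.7 and 9924 in controls and 4612, 1281 and 3328 with Dox. Its Dox libraries lay below its controls, with a log2 fold change of -1.82 (standard error 0.52) and a limma adjusted p of 0.0619. DESeq2 gave an adjusted p of 0.00994 for Orm1 with all libraries and 0.381 without libraries 3. Orm3 had 146, 133 and 186 in controls and 19.0, 275 and 109 with Dox. Dox library 1 was thus the lowest and Dox library 2 the highest of these 6 libraries for Orm3, and the groups overlapped (log2 fold change -0.87, standard error 0.86, limma adjusted p = 0.532). Leaving out libraries 3 gave Orm3 adjusted p-values of 0.798 in limma and 0.991 in DESeq2. Dox library 2 was also the library with the lowest Orm1, and Orm3 made up 16.4% of its Orm counts, against 1.29% to 1.65% in controls and 0.401% in Dox library 1.

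Hp and Apcs fell with Dox, and Lcn2 had a wide range. Hp had 71346, 86725 and 75540.1 normalized counts in controls and 17091, 33222 and 21809 with Dox, without overlap (log2 fold change -1.75, standard error 0.41, limma adjusted p = 0.0389). Leaving out libraries 3 gave adjusted p-values of 0.573 in limma and 0.191 in DESeq2. Hp was the member that fell least among those called, and it remained the most abundant member per kilobase in every library. Apcs had 6341, 6989 and 7984 in controls and 976, 559 and 823 with Dox (log2 fold change -3.21, standard error 0.68, limma adjusted p = 0.0274). For Apcs without libraries 3 they were 0.565 and 0.0473. Lcn2 had 5136, 5041 and 6067 in controls and 24.2, 376 and 142 with Dox. Every Dox library of Lcn2 was thus far below every control, but libraries 1 and 2 of the Dox group differed 15.5-fold, library 2 being the higher. The log2 fold change of Lcn2 was -5.61 (standard error 1.61) with a limma adjusted p of 0.0639, and DESeq2 gave 0.00354 with all libraries and 0.372 without libraries 3.

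Counted together, 6 of the 10 members (Saa1, Saa2, Saa3, Orm2, Hp and Apcs) were differentially expressed with Dox in limma, and all 6 were lower. The background was 3.86% of 12100 genes called lower. The median log2 fold change of the 10 members was -3.13, beside 0.0001 for all genes tested. DESeq2 called 9 members lower (background 6.07%), all but Orm3, and edgeR 6 (background 4.14%). With every library scaled to the same total, limma called the same 6 members, with 325 genes lower and 247 higher in all, against 467 and 138. Without libraries 3, limma called 0 members and 0 of all genes, with 6 members at an unadjusted p under 0.05 (1040 of 12100 genes). DESeq2 called Saa1, Saa2, Orm2 and Apcs there, against a background of 0.851% called lower. With 1 library left out, limma called 0 members (without Control replicate 2 or 3), 1 (without Control replicate 1 or Dox replicate 3), 3 (without Tc replicate 3), 6 or 7 (without Tc replicate 2 or 1) and 8 (without Dox replicate 1 or 2). Over all 12100 genes, limma called 97 and 25 lower without Control replicate 2 or 3. It called 198 and 67 lower without Control replicate 1 or Dox replicate 3, and 258 without Tc replicate 3. Without Tc replicate 2 or 1 the numbers were 437 and 422, and without Dox replicate 1 or 2 they were 838 and 794. In 9 of 10 members every Dox library was below every control, against 17.1% of all genes. Dox library 1 was below all controls in 10 members (background 36.4%), as was Dox library 3 (36.0%). Dox library 2 was below in 9 (43.4%), with Orm3 above (41.5%).

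**Figure D2:**
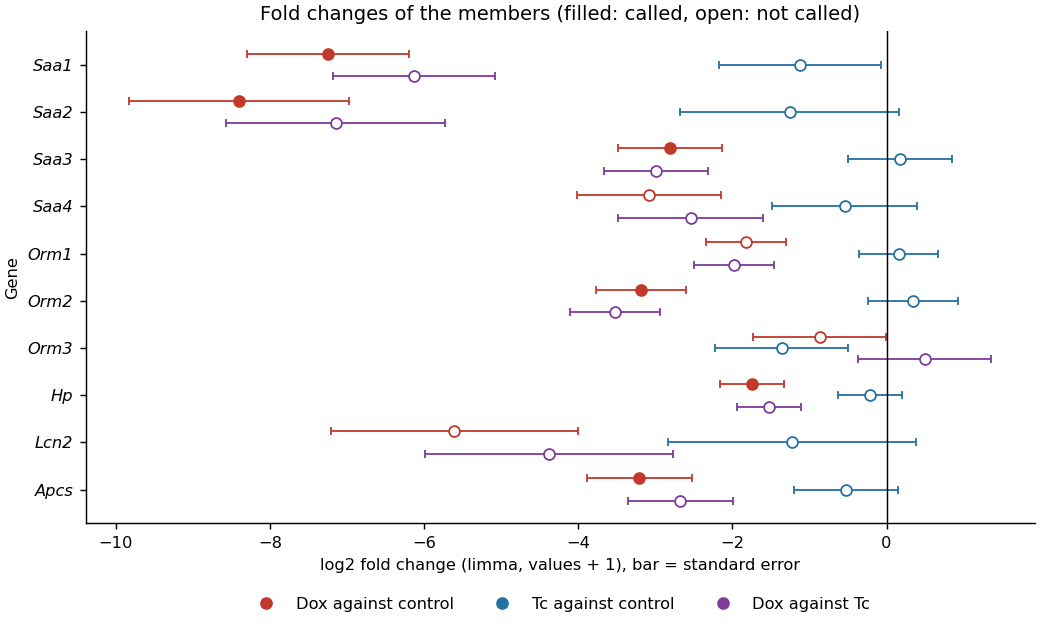
Log2 fold changes of the 10 members from limma on log2(normalized count + 1) over all 9 libraries, with bars for the standard error. Filled points passed a fold change of 2 and an adjusted p of 0.05, which were 6 members of Dox against control, and open points did not.

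The order of the members by level also differed. In the controls Saa1 and Saa2 stood next to Hp per kilobase, whereas in all 3 Dox libraries Orm1 did. Saa1 had more counts than Saa2 by 1.12- to 1.27-fold in controls and by 2.63- to 2.91-fold with Dox. Saa4 made up 16.3% to 18.9% of the Saa counts in controls and 68.6% to 87.7% with Dox. The whole group of 10 took 0.261%, 0.422% and 0.313% of all normalized counts in the Dox livers, of which Hp alone made up 65.5%, 92.2% and 76.7%, against 53.4% to 54.3% in controls.

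**Figure D3:**
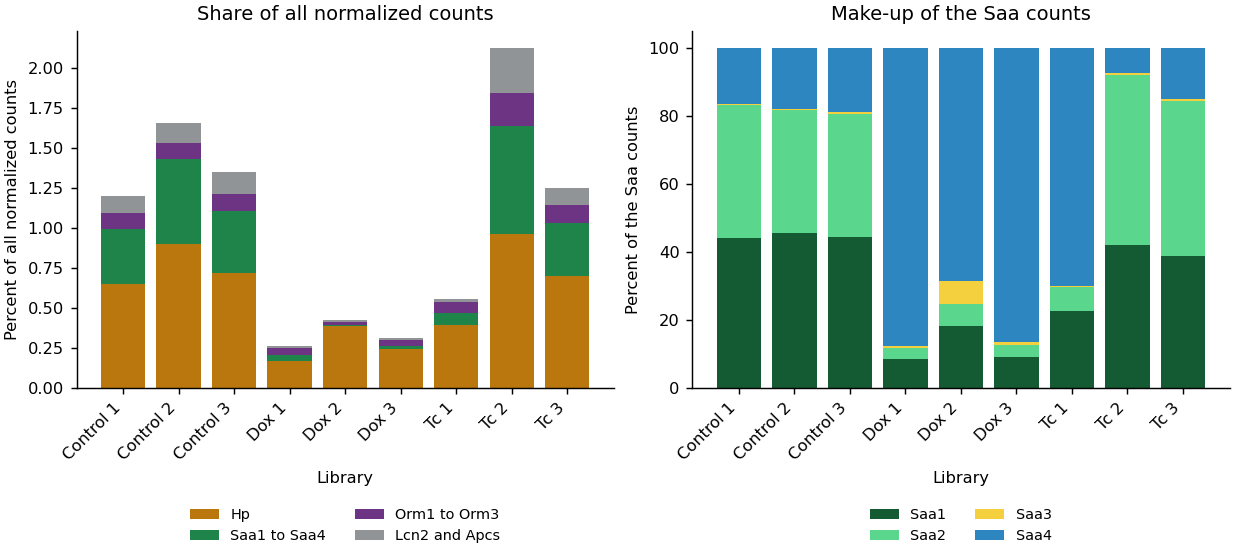
Left, percent of all normalized counts taken by Hp, the Saa genes, the Orm genes, and Lcn2 with Apcs in each library. Right, percent of the Saa counts from each Saa gene. Tc library 1 has a make-up near that of the Dox libraries, with 69.9% of its Saa counts from Saa4, and Tc library 2 has the highest total, 2.13%.

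With Tc, libraries 1 and 2 lay on opposite sides of the controls. Saa1 had 1695, 30975 and 13224 normalized counts in Tc libraries 1, 2 and 3. Saa2 had 522, 37158 and 15518. Saa3 had 37.1, 371 and 172. In each of these, library 1 was below all controls, library 2 was above all controls, and library 3 lay between the first 2. Lcn2 ranged most, with 142, 16169 and 5294, a difference of 114-fold between libraries 1 and 2. Orm2 had 454, 3362 and 1278, Apcs 1512, 14579.7 and 5312, Orm1 6178, 19243 and 10107, and Hp 39441, 105624 and 71691. The same split was thus present in 8 members, and the ratio of library 2 to library 1 ranged from 114 for Lcn2 and 71.1 for Saa2 to 2.68 for Hp.

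Saa4 and Orm3 were below all controls in each Tc library. Saa4 had 5231, 5348 and 5118 in the Tc libraries, which agreed within 1.04-fold and lay below all controls. Orm3 had 29.3, 119.6 and 58.1, also below all controls, though library 2 was again the highest, at 4.08 times library 1. Saa4 and Orm3 were the 2 of 10 members without overlap between Tc and control, a share near the 14.9% of all genes below. Tc library 1 was below all controls in 10 members (33.8% of all genes), and Tc library 2 was above all controls in 8 (31.4%) and below in Saa4 and Orm3 (31.0%). Tc library 3 was below in 4 (31.7%), above in 2 (33.4%) and within the controls in 4.

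No member was differentially expressed between Tc and control, with 0 of 10 called by limma (background 0.165% in either direction), 0 by DESeq2 (1.58%) and 0 by edgeR (0.174%), and 0 members had an unadjusted p under 0.05 in any of them. Log2 fold changes ranged from -1.36 (Orm3, standard error 0.86) to 0.34 (Orm2, standard error 0.59), and adjusted p from 0.602 to 0.955. The standard errors were as large as 1.61 (Lcn2), so that changes of several-fold lay within the error. Without libraries 3, limma and DESeq2 called 0 members (background 0% and 0.0744%), with 0 at an unadjusted p under 0.05.

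**Figure D4:**
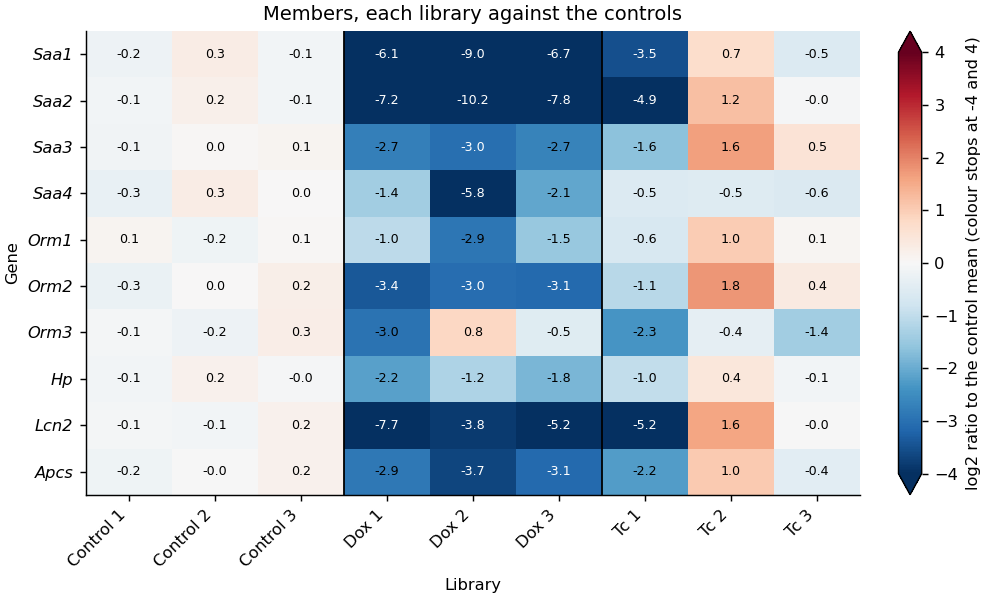
Log2 ratio of each library to the mean of the controls on the log2 scale for the 10 members (normalized counts + 1). The medians over the members were -2.90, -3.35 and -2.89 in Dox libraries 1, 2 and 3 and -1.94, 1.03 and -0.08 in Tc libraries 1, 2 and 3.

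Compared directly, most members were lower in the Dox than in the Tc libraries, but 0 passed in limma. Every Dox library was below every Tc library in 8 of 10 members, all but Orm3 and Lcn2 (background 12.4%). Tc library 1 came nearest to the Dox libraries. Between Dox library 1 and Tc library 1, Saa1 was 281 against 1695, Saa2 105 against 522, Orm2 93.7 against 454 and Lcn2 24.2 against 142. Log2 fold changes of Dox against Tc were -6.13 for Saa1 (standard error 1.05, limma adjusted p = 0.0696), -7.15 for Saa2 (standard error 1.4, limma adjusted p = 0.0841) and -3.52 for Orm2 (standard error 0.59, limma adjusted p = 0.0641). The median over the members was -2.83, beside -0.02 over all genes. Limma called 0 members (background 0.215% in either direction), with 9 members at an unadjusted p under 0.05 (2622 of 12100 genes). EdgeR called 0 (0 of all genes), with 8 at an unadjusted p under 0.05 (2861 of 12100 genes). DESeq2 called 8 members lower with Dox, all but Saa4 and Orm3 (background 2.60%), and in the fit without libraries 3 it called Saa1, Saa2, Saa3 and Orm2 (background 0.190%), Saa3 with an adjusted p of 0.0496. Over all genes, Dox and Tc libraries of the same number deviated together from their group means, with correlations of 0.29, 0.32 and 0.18. The number was therefore also used as a block, a setting added after the data were seen for DESeq2. Saa1, Saa2, Saa3, Saa4, Orm1 and Apcs did not share this, being lowest in library 2 with Dox and highest there with Tc. Orm2, Orm3, Hp and Lcn2 were highest in library 2 with either drug. With this replicate block limma called 0 members (2 of 12100 genes in the model of 9 libraries). DESeq2 with the block and only the 2 groups called 8, all but Orm1 and Orm3, where 151 of 12100 genes were called lower. Without Dox replicate 1, Dox replicate 2 or Tc replicate 1, limma called 7, 3 and 6 members, and 0 without any other library. Over all 12100 genes the first 3 fits called 644, 125 and 66 lower with Dox, and the others called 0 genes.

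Among 30 other genes of the acute-phase response, 9 were differentially expressed and lower with Dox (background 3.86%) and 0 were higher. The median log2 fold change of the 30 was -1.39 (all genes 0.0001). Fgl1, a fibrinogen-like hepatokine, fell most, with 13633, 11158 and 11614 normalized counts in controls and 957, 1528 and 1088 with Dox (log2 fold change -3.37, limma adjusted p = 0.0129). Lrg1, a leucine-rich plasma glycoprotein, fell by 3.04 on the log2 scale (adjusted p = 0.0138) and Itih4, a heavy chain of the inter-alpha-trypsin inhibitor family, by 2.50 (adjusted p = 0.0241), both in limma. The 3 fibrinogen chain genes Fga, Fgb and Fgg fell by 1.82, 1.76 and 1.81 (limma adjusted p = 0.0491, 0.0354 and 0.0427), and the others called were C4b, Steap4 and Itih3. Without libraries 3, limma called 0, where 8 had an unadjusted p under 0.05 (1040 of 12100 genes). DESeq2 there called Fgl1, Lrg1 and Itih4 (background 0.851% called lower). Crp, a pentraxin like Apcs that is weakly inducible in mice, had 4401, 3829.8 and 4445 in controls and 2624, 933 and 1925 with Dox (log2 fold change -1.33, limma adjusted p = 0.0521, and 0.573 without libraries 3, where DESeq2 gave 0.419).

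With Tc 0 of the 30 genes were called by limma (median -0.43, background 0.165%). Of the 30, 5 had an unadjusted limma p under 0.05 (1412 of 12100 genes), and DESeq2 called 1, A2m (background 1.58%). A2m, alpha-2-macroglobulin, was singled out after its values were seen. It had 25.4, 15.9 and 29.2 normalized counts in controls, 4.21, 0 and 7.04 with Dox and 17.6, 6435 and 2325 with Tc. It was thus high in the Tc library in which most members were above the controls, and in the library 3 that is close to a sum with it. Between Dox and Tc limma called 0 of the 30 (background 0.215%). Even so, 19 had an unadjusted limma p under 0.05 (2622 of 12100 genes). DESeq2 called 13, all lower with Dox (background 2.60%).

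**Figure D5:**
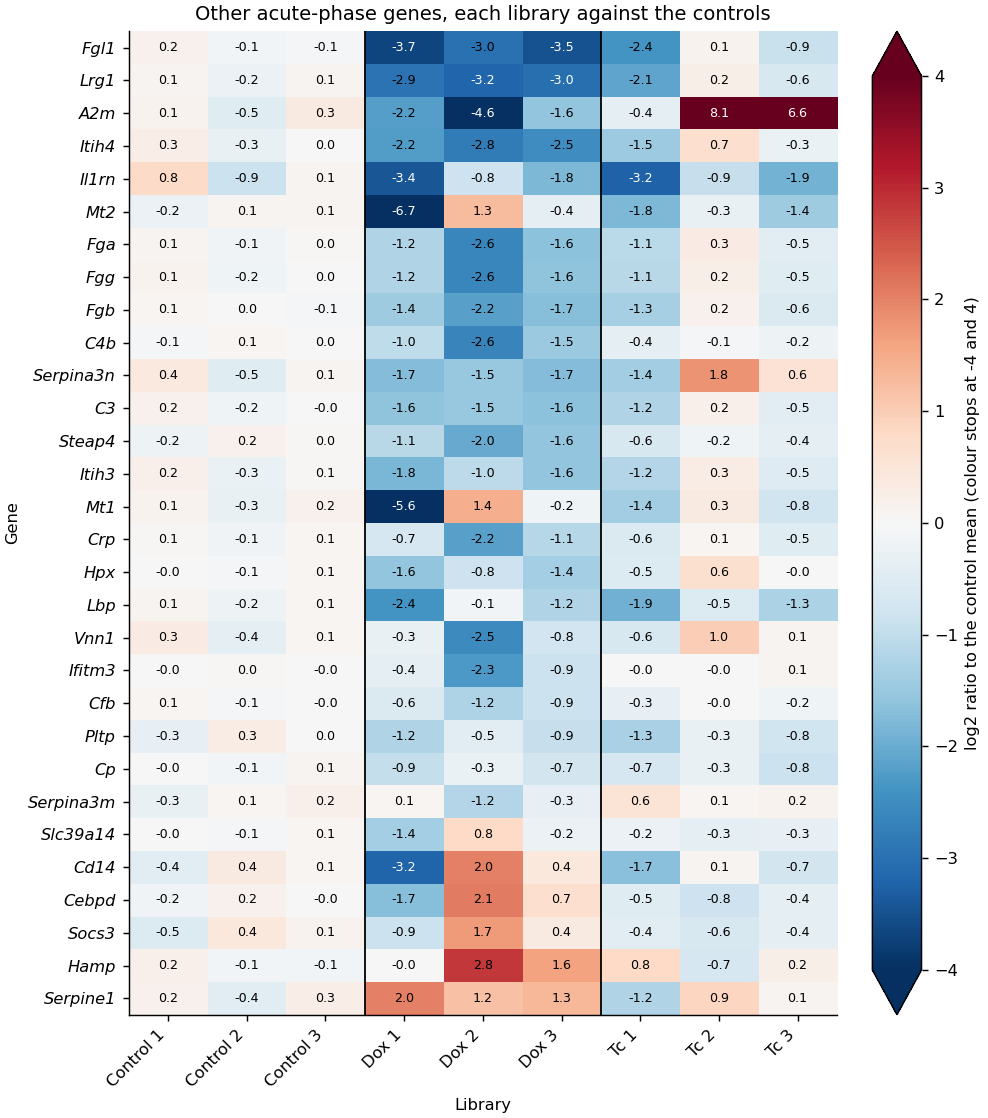
Log2 ratio of each library to the mean of the controls on the log2 scale (normalized counts + 1) for the 30 other acute-phase genes, ordered by the log2 fold change of Dox against control. The medians were -1.40, -1.22 and -1.17 in Dox libraries 1, 2 and 3 and -1.09, 0.11 and -0.42 in Tc libraries 1, 2 and 3.

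Of 44 genes for cytokines, their receptors and their signalling, 2 were called with Dox, both lower, a share near the 3.86% of all genes called lower. Of the ligands, Il6 had at most 1.76 normalized counts in any library and Lif and Il22 were at 0 in all 9, and Il1b had 16.9, 32.7 and 34.3 in controls, 6.32, 36.8 and 10.6 with Dox and 20.5, 42.3 and 26.1 with Tc. Of 4 ligands tested, 0 were called. Lifr, a receptor subunit that pairs with gp130, had 14136, 9863 and 13154 in controls, 4108, 2887 and 3549.9 with Dox and 11566, 11346 and 9999 with Tc. Its log2 fold change was -1.81 against control (standard error 0.20, limma adjusted p = 0.00590) and -1.65 against Tc (standard error 0.20, limma adjusted p = 0.0487, or 0.077 with the replicate block). Irak4, a kinase of interleukin-1 and Toll-like receptor signalling, fell by 1.30 with Dox (limma adjusted p = 0.0269). These were the 2 of 16 receptor and adaptor genes called with Dox, and 0 of 24 signalling genes were called. Without libraries 3, limma called 0 of the 44 and DESeq2 called Lifr. Without Dox replicate 1, limma called 10, of which 8 were higher (Relb, Fos, Il1r1, Nfkbiz, Il22ra1, Jun, Junb and Cebpd), and these were picked out after their values were seen. Of all 12100 genes, that fit called 1500, of which 662 were higher.

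The regulators Stat3, Socs3, Cebpb, Cebpd, Nfkbia and Il6ra did not pass in any comparison in limma with all libraries. Stat3 had 2359, 2349 and 2380 normalized counts in controls, 1294, 2469 and 1668 with Dox and 1367, 1830.0 and 1539 with Tc. Socs3, a feedback inhibitor and target of STAT3, had 96.3, 186 and 153 in controls, 76.9, 454 and 180.4 with Dox and 104, 89.9 and 108 with Tc. Cebpd had 119.6, 149 and 132 in controls and 40.0, 559 and 214 with Dox. Dox library 2 was the highest of all 9 libraries for Socs3, Cebpd, Cebpb (3076) and Nfkbia (1101). It was above all controls in 41.5% of all genes. Among the Dox libraries it was the lowest for the Saa genes, Orm1 and Apcs and the highest for Orm2, Orm3, Hp and Lcn2. Il6ra had 2191, 1877 and 2159 in controls and 916, 3151 and 1609 with Dox. Dox library 1, by contrast, was the lowest of the 9 for Socs3, Cebpd, Cebpb, Nfkbia, Stat3 and Il6ra.

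Plasma protein genes that are usually lowered in the acute phase gave 1 call with Dox in 12, against 3.86% of all genes called lower. This was Apoa4, which was lower (log2 fold change -2.50, limma adjusted p = 0.0172, and 0.559 without libraries 3, where DESeq2 gave 0.0464), and the median over the 12 was -0.48. Alb, the hepatocyte reference, had 1408836, 956160.4 and 1246646 normalized counts in controls, 607452, 255547 and 456395 with Dox and 576729, 1093211 and 711183 with Tc (Dox against control -1.52, limma adjusted p = 0.208, and 0.693 without libraries 3). Library 3 lay between libraries 1 and 2 of the Tc group for Alb, as for 9 members, and library 2 was the highest. Of 12 tested genes for receptors, ligands and binding partners of the members, 1 was called with Dox, the haemoglobin gene Hba-a1, which was lower (3.86% of all genes). It was not called without libraries 3 in limma or DESeq2.

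Markers of other cells were measured because Lcn2 and Saa3 are also made outside hepatocytes. The counts that follow stand beside 3.86% of all genes called lower with Dox, and 138 of 12100 called higher. The 12 hepatocyte markers were all present and summed to 1542651 to 2083750 normalized counts in controls, 784981 to 1261845 with Dox and 1328761 to 1852435 with Tc, a sum made up mostly of Alb. Of the 12, 5 had a log2 fold change above 0 with Dox and 7 below, and 2 were called, G6pc, a gluconeogenic enzyme gene, higher (log2 fold change 1.01) and Fgb lower. Neutrophil markers summed to 127 to 613 in controls, 20.0 to 205 with Dox and 29.3 to 201 with Tc, and Mpo alone of the 6 tested was called, lower with Dox. Macrophage markers summed to 10009 to 18237 in controls, 2816 to 9576 with Dox and 4937 to 9663 with Tc, and Clec4f, Adgre1 and Csf1r of 12 tested were called lower with Dox. The neutrophil sum of control library 2 was the highest of all. Endothelial markers summed to 5684 to 5911 in controls and 2806 to 3701 with Dox, and Stab2 and Cdh5 of 8 were called lower. Erythroid markers summed to 1535 to 6078 in controls and 763 to 2495 with Dox, with Hba-a1, Hba-a2, Hbb-bt and Slc4a1 of 6 called lower. Stellate cell markers summed to 3921 to 4154 in controls and 3442 to 3902 with Dox (0 of 8 called), and lymphoid markers to 70.9 to 112 and 31.6 to 49.5 (0 of 2 tested). Adipocyte markers summed to 42.0 to 60.2 in controls and 48.4 to 133 with Dox, with Lep and Retn at 0 in all libraries and Cidec called higher, and bile duct markers to 199.9 to 243 and 148 to 376, with Sox9 called higher. Without libraries 3, limma called 0 of these markers, and DESeq2 called Mpo, Clec4f, Stab2, Hbb-bt and Slc4a1, all lower with Dox. With Tc, 0 genes of these lists were called. The part of these cells in the members' values was not tested.

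The pattern of Saa2 over the 9 libraries was closest to that of Saa1. The root mean square difference of the centred log2 profiles was 0.74, the smallest of 9379 genes with a mean of at least 50. Among genes outside the list, Prtn3, a serine protease known from neutrophil granules, followed at 1.02, with 652, 720.1 and 699 normalized counts in controls, 3.16, 1.15 and 2.64 with Dox and 6.84, 609 and 237 with Tc. Then came A1bg (1.47), the cytochrome P450 genes Cyp3a41a (1.54), Cyp3a44 (1.66) and Cyp3a16 (1.71), which are close copies of each other, and Isyna1 (1.88), which encodes inositol-3-phosphate synthase. These 6 were picked for likeness to Saa2. They therefore had to be low in the Dox libraries and in Tc library 1 and high in Tc library 2. Within the controls A1bg (1345, 136 and 750) and Cyp3a16 (442, 38.9 and 244) had the widest spread of the 6. The same 6 genes came in the same order over libraries 1 and 2 alone, which reuses the same values. Of the other members, Lcn2 stood at rank 10, Apcs at 15, Orm2 at 16, Saa3 at 20, Saa4 at 36, Orm1 at 67, Hp at 142 and Orm3 at 4307.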

How the data were processed

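Liver RNA of 3 groups (Control, Dox, Tc) with 3 libraries each, grouped by the sample titles, was sequenced single-end (86 bases, directional kit). Per the study's methods and processing notes, the authors trimmed reads with cutadapt, aligned them to mm10 with STAR 2.7.11ac, counted unique reads with HTSeq 2.0.5 and normalized with DESeq2 1.42.0. As deposited, values are normalized counts (a signal), each gene count having been divided by the size factor of its library. Whole reads were recovered for 100% of the values (within 0.01 reads). The study calls the libraries of a group biological replicates, while the labels do not say which came from separate mice, so p-values measure the spread between libraries.

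Log2(normalized count + 1) was tested with limma 3.58.1 (R 4.3.3, trend) in 1 model of 9 libraries, for the 12100 genes averaging 10 or more, with Benjamini-Hochberg adjustment and a call at a fold change over 2 and an adjusted p under 0.05. DESeq2 1.42.0 and edgeR 4.0.16 on the recovered reads were alternatives, beside the pseudocount, filter, scaling, groups fitted, replicate block, libraries 3 and each library left out. The methods were tested on simulated data in which every group had the spread of the controls. Most members spread more widely with Dox and with Tc, so the simulation does not cover their case. The members, gene lists and the naming rule were chosen with earlier results of these data known. All members were named, with called genes of the lists (largest change first, at most 8 a list), Stat3, Socs3, Cebpb, Cebpd, Nfkbia, Il6ra, Il6, Il1b, Crp and Alb, and the 6 genes most like Saa2. Likeness was the root mean square difference of log2 values centred on the gene's mean. Lengths, positions and identities (Biopython 1.88) came from GENCODE vM21 and upstream sequence from RefSeq (GRCm38.p6), both of the authors' build. The deviations of same-numbered Dox and Tc libraries from their group means correlated at 0.29, 0.32 and 0.18 over 12100 genes, those of controls with either drug group at -0.08 to 0.06. The numbers come from the titles, and since libraries 3 are close to sums the 3 correlations are not independent.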

Additional observations from a re-analysis of the deposited data

Results flagged for a closer look

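The response of Lifr differed between the drugs in the limma fit of all 9 libraries, the fit by which it was chosen for this section. Its log2 difference of Dox from Tc was -1.65 (limma adjusted p = 0.0487), just below the threshold in the direct test. All 3 Dox libraries were below all 3 Tc libraries, as in 12.4% of all genes. Without libraries 3 the difference was -1.73 with a limma adjusted p of 0.755 and -1.71 with a DESeq2 adjusted p of 0.00526, and its adjusted p over the alternatives ranged from 2.55e-12 to 0.755. With 1 library left out it ranged from 0.00738 to 0.274, above 0.05 without any of the 3 controls, Dox replicate 3, Tc replicate 2 or Tc replicate 3. The replicate block gave a limma adjusted p of 0.077, and edgeR gave 0.0575.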

How the results depend on the processing

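Over all alternatives, 563 of 670 member values kept their direction and their side of the threshold. Calls of members were 6 for Dox against control, 0 for Tc against control and 0 for Dox against Tc with the pseudocount at 0.1 or 8, a mean of at least 50 and the same total per library, which moved the median of all genes by 0.17 in both of the comparisons with Dox. Without a filter on low values Dox against control gave 5 members and 4 other acute-phase genes. DESeq2 gave 8 members for Dox against Tc, and 15, 1 and 13 other acute-phase genes and 4, 0 and 6 signalling genes in the 3 comparisons. EdgeR gave 6, 0 and 0 members, and 0 signalling genes for Dox against Tc. Without libraries 3, limma gave 0 throughout, and DESeq2 gave 4 members for Dox against Tc, 3 and 1 other acute-phase genes for Dox against control and Dox against Tc, and 1 signalling gene for Dox against control. Fits of only the 2 groups gave 1, 1 and 0 signalling genes. For Dox against Tc, signalling genes were 0 with the pseudocount of 8, no filter or a mean of at least 50. The cause of these differences was not tested.

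When a replicate block was added to the model of 9 libraries, Dox against control gave 6 members and 4 other acute-phase genes, and Dox against Tc 0 signalling genes. With the replicate block and only the 2 groups, Dox against control gave 1 member (Orm2), 0 other acute-phase genes and 0 signalling genes, Tc against control 0, 1 and 1, and Dox against Tc 0, 0 and 0. DESeq2 with the replicate block for Dox against Tc gave 8, 8 and 2. The control numbers do not pair with those of either drug group.

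Leaving out 1 library in turn gave 0 to 8 members, 0 to 14 other acute-phase genes and 1 to 10 signalling genes for Dox against control, and 0 to 7, 0 to 15 and 0 to 13 for Dox against Tc. Calls over all 12100 genes also moved in these fits, from 33 to 1500 for Dox against control and from 0 to 1362 for Dox against Tc. For Dox against control the members were 0 without Control replicate 2 or Control replicate 3, 1 without Control replicate 1 or Dox replicate 3, 3 without Tc replicate 3 and 8 without Dox replicate 1 or Dox replicate 2. For Dox against Tc they were 7 without Dox replicate 1, 3 without Dox replicate 2 and 6 without Tc replicate 1. For Tc against control the 3 counts were 0 throughout.

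Direction turned where a value was near 0 or the libraries were split. For Tc against control, DESeq2, edgeR and DESeq2 without libraries 3 gave 0.14, 0.13 and 0.17 for Saa2, 0.41, 0.41 and 0.68 for Lcn2 and 0.0061, 0.0013 and 0.27 for Apcs on the log2 scale. Orm3 was at 0.075 for Dox against control with DESeq2 without libraries 3. With 1 library left out, Tc against control ranged from -2.02 to 0.075 for Saa1, -2.49 to 0.58 for Saa2, -0.56 to 1.09 for Saa3, -0.27 to 0.55 for Orm1, -0.37 to 1.07 for Orm2, -0.55 to 0.17 for Hp, -2.63 to 0.78 for Lcn2 and -1.32 to 0.32 for Apcs, and Orm3 from -1.72 to 0.18 against control and -0.36 to 1.54 against Tc with Dox. The lowest member value rested on 11 reads, and all others on more.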
